A study of Mus musculus with 36 samples.

Results

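The clustered protocadherins are neural cell surface proteins encoded by 3 neighbouring gene clusters, named alpha, beta and gamma, and the 58 genes described here comprise 14 Pcdha, 22 Pcdhb and 22 Pcdhg members of 20804 autosomal gene windows examined. They were chosen by gene name, and the rule uses no measured value. All 58 lie on the plus strand of mouse chromosome 18 (mm10), where their windows span 0.893 Mb from 36929285 to 37822134. A window was the first exon of 1 transcript per gene plus 1 kb upstream, so it covers the promoter and the exon that makes each member different from the next. Nearly all CpGs measured in the members lay in first exons. The values are 5-methylcytosine (5mC) levels in percent, measured by oxidative bisulfite reduced representation bisulfite sequencing (RRBS), a method that reads CpG-dense fragments cut by restriction enzymes and does not count oxidised cytosines as methylated. DNA came from single whole brains of mouse embryos at E11.5. The embryos were of the 129S6.Cg strain carrying the Tet1 tm1Koh allele, an insertion at the first coding ATG of Tet1, and carried 2, 1 or no intact copies of the gene, here WT, HET and KO. The dams were Tet1 HET and ate a custom diet with folic acid in excess (30 ppm), at the control level (3 ppm) or depleted (0.1 ppm), with an antibiotic in all 3. By their GEO titles there were 3 WT, 5 HET and 6 KO embryos on 30 ppm, 4, 3 and 5 on 3 ppm, and 2, 2 and 5 on 0.1 ppm. The study's sample list gives KO replicate 1 of 30 ppm as HET, and all KO values of 30 ppm and of all diets include it unless stated. HET replicate 2 of 0.1 ppm, with the fewest CpG calls of all libraries, was not compared. Its choice follows the study's own omission of the least covered library, a HET embryo of the depleted diet.

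Each alternate member of these clusters has its own promoter and a large first exon, and neighbouring members are spliced to constant exons within the alpha and gamma clusters, whereas beta members have a single exon each. A neuron switches on only a few alternate promoters, apparently at random, while the C-type members at the ends of the alpha and gamma clusters are expressed more widely. The resulting combination of surface proteins lets a neuron recognise its own processes. CTCF and cohesin loop promoters to distant enhancers, and CpG methylation of a promoter and its exon is associated with the silent state. TET1 is a dioxygenase that oxidises 5mC, a first step of DNA demethylation. The study asked how its loss and the folate supply of the mother act together on the methylome of the embryonic brain. In bulk tissue a level between 0% and 100% does not tell how methylation is divided between cells, between alleles and between neighbouring molecules, and a change in the share of a cell type cannot be told apart from a change within cells.

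The files held 23.2 to 197 M CpG calls per library. At the distinct CpGs of the 58 members that were covered at least 5 times in every compared embryo, an embryo had 11877 to 88376 CpG calls, with a median of 17215. A read that spans several CpGs gives a call at each, so calls outnumber molecules. Genotype labels were checked at a single CpG within a Tet1 intron, known from earlier work on these data to separate the genotypes. Its level was 0% to 7.32% in 7 WT, 8.33% to 69.2% in 11 HET and 69.6% to 100% in 15 KO libraries. These ranges leave out the 3 libraries named next and still nearly touch. The CpG had only 8 to 103 reads per library. The library labelled KO replicate 1 of 30 ppm stood at 45% (9 of 20 reads). The library labelled WT replicate 2 of 30 ppm was at 36.36% (12 of 33), and the library labelled WT replicate 2 of 0.1 ppm at 40.0% (6 of 15). These 3 went against their labels, and for some members and counts, not all, the results without them are also given. The CpG was chosen on these same data, so neither the check nor the results without the 3 libraries are independent support. The study's sample list gives the first of them as HET, whereas its GEO title, followed here, gives KO. For the WT libraries among them, the list and the titles both give WT. The titles also label this library and WT replicate 2 of 0.1 ppm as inHB, where that list gives brain malformation.

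Of the 6311 reference CpGs in the members' windows, 775 had at least 5 reads in every compared embryo, and 44 of 58 members had at least 3 of them. 42 members entered the tests, 10 of the alpha, 13 of the beta and 19 of the gamma cluster, with 3 to 58 CpGs each (median 15). Their median number of CpG calls per embryo was between 59 and 1236. Pcdhgc3 and Pcdhgc4, both C-type, were measured but not tested, since their levels varied by less than 2 percentage points (SD) over the 35 embryos. Pcdhb14 had 1 usable CpG and Pcdhb19 had 2. Another 12 members had none, namely Pcdha6, Pcdha7, Pcdha9, Pcdha10, Pcdhb3, Pcdhb4, Pcdhb8, Pcdhb9, Pcdhb10, Pcdhb11, Pcdhb12 and Pcdhga6. Windows of 3 pairs of neighbouring beta genes overlapped, but no usable CpG lay in an overlap.

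In WT brains most clustered protocadherins were partly methylated. Of the 44 members with at least 3 CpGs, 38 (86.4%) had a mean WT level between 20% and 80%, 5 were lower and 1 was higher. Over all 11940 windows with as many CpGs, 496 (4.15%) were in that range and 11118 were below it. These windows were not matched to the members for exon length or CpG position. First exons of tested alternate members were 2346 to 6609 bp long. Only 6 alpha, 4 beta and 10 gamma usable CpGs lay upstream of any first exon, so the member levels say little about promoters. The 39 alternate members had a median WT level of 45.2%, and their extremes were both in the gamma cluster, with Pcdhga12 at 14.6% ± 3.3 and Pcdhga7 at 84.9% ± 1.1 (SD, n = 9). Beta members were the most methylated, with a median of 59.8%, followed by the alpha alternates at 52.4% and the gamma alternates at 30.5%. Within the alpha cluster the highest level was that of Pcdha11, 79.4% ± 4.1, and within the beta cluster that of Pcdhb17, 71.9% ± 4.4, with Pcdhb21 the lowest beta member at 41.5% ± 3.0 (SD, n = 9). The ranges over WT embryos of Pcdha11 (72.7% to 85.5%) and Pcdhb17 (69.3% to 83.0%) overlapped, as did those of Pcdhga7 (83.7% to 87.2%) and Pcdha11.

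C-type members had lower WT levels than most alternates beside them. Pcdhgc3, the first C-type exon of the gamma cluster, was at 0.779% ± 0.171 in WT and 1.07% ± 0.42 in KO, and Pcdhgc4 was at 0.621% ± 0.436 and 0.775% ± 0.370 (SD, n = 9 WT and 16 KO). Pcdhac2 was at 4.55% ± 1.51 in WT. Pcdhgc5 and Pcdhac1, with 20.8% ± 2.5 and 24.3% ± 4.7 (SD, n = 9), were in the range of the lower gamma alternates. The median of the 5 C-type members was 4.55%. These orders are descriptions over different sets of CpGs, since the enzymes' cutting sites decide which part of each exon is seen.

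**Figure D1:**
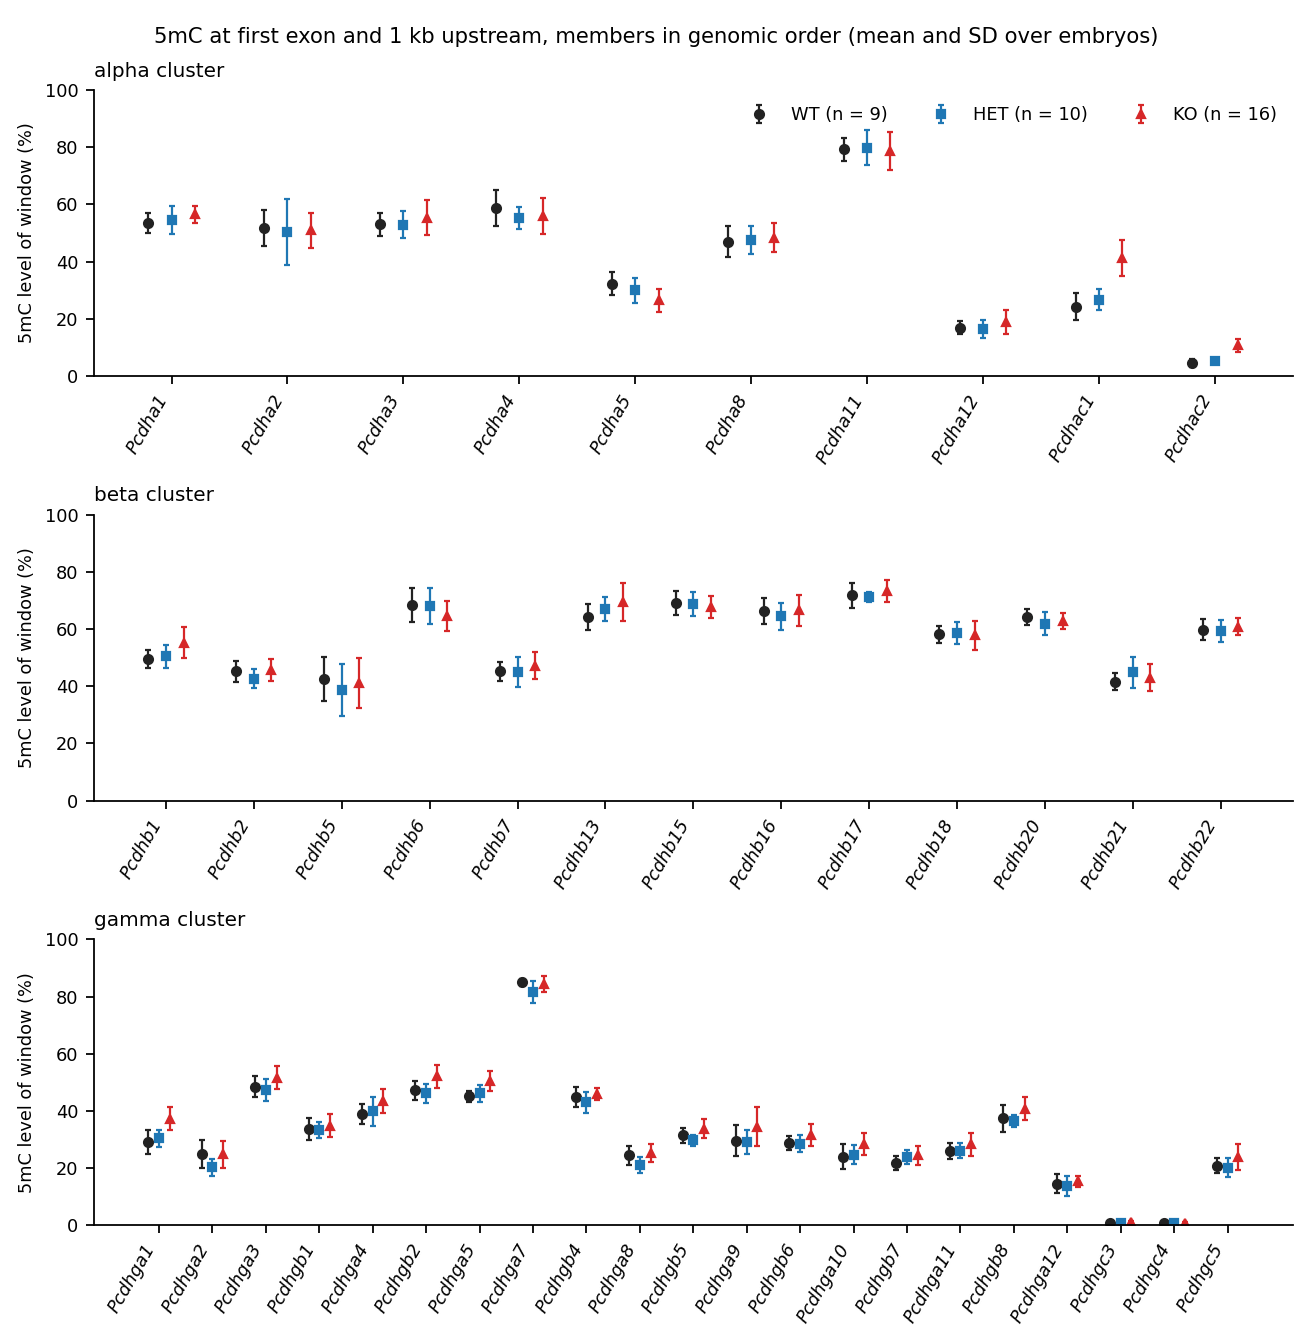
5mC level (%) of the window of each measured member, in genomic order from left to right within the alpha, beta and gamma clusters, for WT (n = 9), HET (n = 10) and KO (n = 16) embryos, as mean with SD. Most members lie between 20% and 80% in every genotype, and Pcdhac1 and Pcdhac2 at the end of the alpha cluster show KO means of 41.1% and 10.8% above WT means of 24.3% and 4.55%.

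The position of an alternate member within its cluster went with its WT level only loosely, with Spearman's rho of -0.31 over 8 alpha, 0.165 over 13 beta and -0.488 over 18 gamma members. Members of a cluster share libraries and neighbourhood, so these coefficients are descriptions.

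Levels rose inward over the first 1500 bp of the exon, but not steadily beyond it. Over the alternate members, WT embryos had 24.2% ± 1.2 at the 134 CpGs in the first 500 bp of the exon, 41.25% ± 2.33 between 500 and 1000 bp, and 52.9% ± 3.1 between 1000 and 1500 bp (SD, n = 9). The gamma alternates went from 20.3% ± 1.5 to 37.9% ± 2.0 and 44.7% ± 2.7 over the same bins. In the beta cluster the first bin had only 9 CpGs of 2 genes, at 28.4% ± 2.4, and the bin from 1000 to 1500 bp was at 69.8% ± 3.5. From 1500 to 2000 bp all alternates were at 46.8% ± 1.1 over 178 CpGs, the gamma ones at 39.2% ± 1.7 and the beta ones at 58.9% ± 2.3. From 2000 to 2500 bp all alternates were at 56.3% ± 2.4. Only 8 usable CpGs of alternate members lay upstream of an exon, so the values describe first exons far more than promoters. The bins hold different genes, and the part of this in the profile was not tested.

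**Figure D2:**
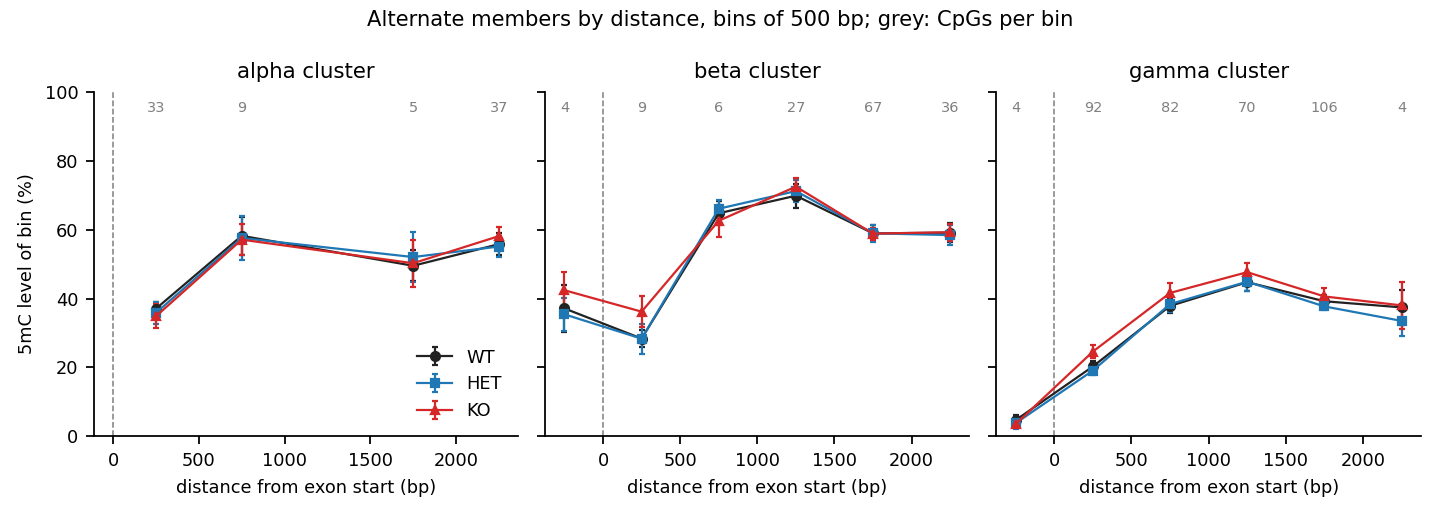
5mC level (%) of the alternate members by distance from the start of the first exon (bp, bins of 500 bp plotted at their centre), as mean with SD over WT, HET and KO embryos, with the number of CpGs of each bin in grey. WT levels rise from 20.3% to 44.7% over the first 1500 bp of gamma exons, and the KO line runs above the WT line in these gamma bins by 2.9 to 4.32 points.

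KO and WT brains were compared to ask which members gain or lose 5mC in KO. This was done on each diet, and over all diets with diet as a term. The study matched KO embryos by stage and sex to littermates, but these tests carry no litter or sex term. By title 5 KO embryos had a neural tube defect, 4 were inHB and 7 normal. All WT embryos but replicate 2 of 0.1 ppm were titled normal. The paper detected transcripts of a short Tet1 isoform in KO brains. Pcdhac1, the first C-type exon of the alpha cluster (exon at 37090013 to 37092571), was the one member called on every diet. Its neighbour Pcdhac2 passed the test on every diet with differences under 10 points. Of the alternates, Pcdhga1, the first exon of the gamma cluster, was called on the control diet. Pcdha5 was the only member lower in KO over all diets at an adjusted p under 0.05. Calls needed a difference of at least 10 points beside an adjusted p under 0.05, and p-values come from a quasi-binomial test with its dispersion moderated as in limma, adjusted over 1755 windows.

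For Pcdhac1 on 3 ppm, WT embryos were at 22.8%, 23.1%, 27.1% and 22.3%, HET embryos at 25.4%, 30.4% and 31.2%, and KO embryos at 48.8%, 42.7%, 48.1%, 48.2% and 49.2%. All KO embryos lay above all WT and HET embryos there. On 30 ppm, WT embryos were at 18.6%, 32.2% and 24.2%, HET embryos at 28.9%, 20.9%, 26.9%, 26.0% and 20.4%, and the 6 KO embryos between 25.8% and 46.9% with a median of 40.0%. The lowest KO value and the highest WT value there belong to the libraries labelled KO replicate 1 and WT replicate 2, which went against their labels at Tet1, and the other 5 KO embryos lay above all WT embryos. On 0.1 ppm, WT embryos were at 18.6% and 29.7%, HET embryos at 28.6% and 27.8%, and KO embryos at 36.54%, 36.42%, 36.35%, 37.76% and 41.52%. The groups did not overlap, although the WT embryo at 29.7% is the library labelled WT replicate 2.

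Pcdhac1 was higher in KO by 13.7 ± 5.0 points on 30 ppm (SE, adjusted p = 0.0327), by 23.6 ± 1.7 on 3 ppm (5.02e-09) and by 13.6 ± 3.4 on 0.1 ppm (0.00226). Differences and SE weight embryos equally, and the p-values come from the quasi-binomial test moderated as in limma. That test weights embryos by CpG calls, and WT replicate 1 of 3 ppm had 3536 here. The other WT embryos of that diet had 539 to 958. With any 1 embryo left out the 3 ppm difference was 23.1 to 24.8 points and still called. Over all diets the difference was 17.6 ± 2.3 points (SE, adjusted p = 1.87e-08 in that test), and 15 of 16 KO embryos lay above all 9 WT embryos. Without the 3 libraries it was 19.9 points on 30 ppm, 19.2 on 0.1 ppm, where 1 WT embryo was left, and 21.6 over all diets. The call on 30 ppm was the weakest. With litter as a block the difference there was 13.9 points at an adjusted p of 0.0781. The call was lost when any 1 of 7 of the 9 embryos was left out, at adjusted p between 0.0628 and 0.311. The difference stayed at 10.5 points or more in all 9 of these runs. On 0.1 ppm, without WT replicate 1 the difference was 7.98 points and no longer called, and the only WT embryo left was the library that went against its label.

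**Figure D3:**
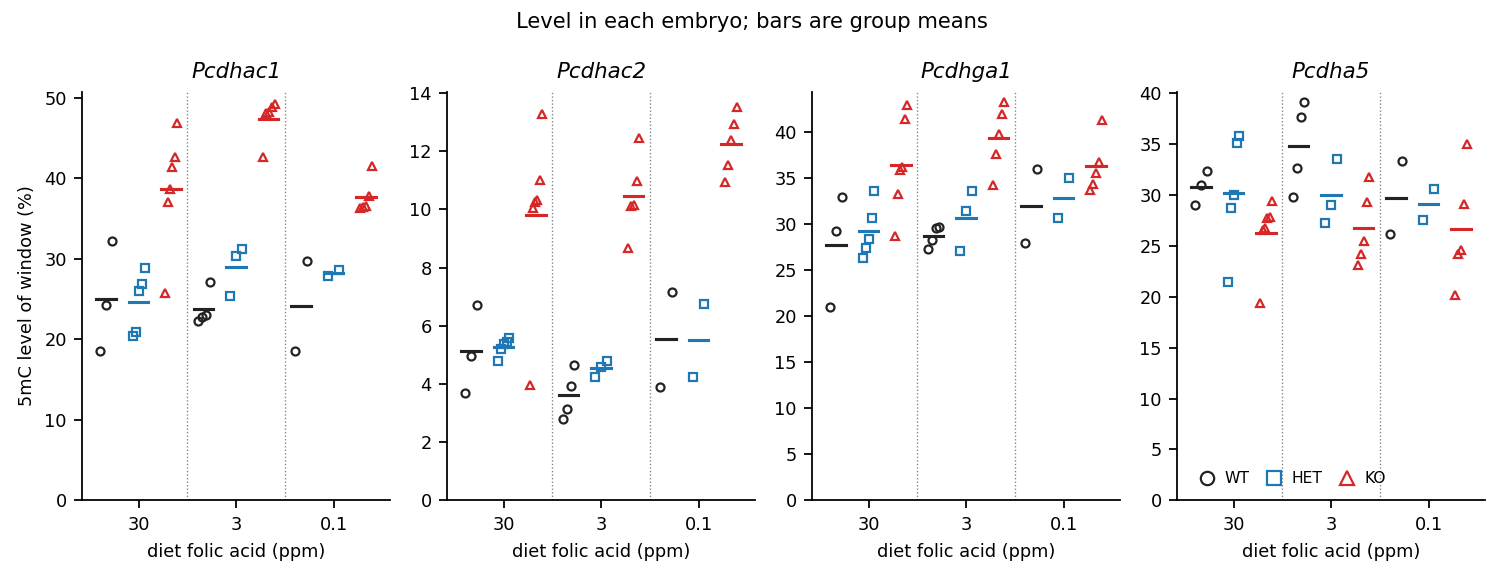
5mC level (%) of the window in each embryo for Pcdhac1, Pcdhac2, Pcdhga1 and Pcdha5, by maternal diet (ppm folic acid), with embryos of a group set in order of level and bars at group means. On 3 ppm the KO embryos lie above the WT embryos in the first 3 panels without overlap, and at Pcdhac1 they reach 42.7% to 49.2% against 22.3% to 27.1%.

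The gain at Pcdhac1 covered the whole measured stretch of the exon. All 26 usable CpGs between 30 and 653 bp from the exon start had a higher mean in KO than in WT, 22 of them by at least 10 points, with a median difference of 17.5 and a highest of 35.7 points. WT levels of these CpGs ran from 1.39% to 68.8%, so CpGs of low and of high level both rose. The first 500 bp were at 23.7% ± 3.4 in WT and 40.9% ± 5.9 in KO, and the next 500 bp at 38.62% ± 9.32 and 63.1% ± 7.3 (SD, n = 9 and 16). Upstream of the exon 6 CpGs within 64 bp of its start were at 1.25% ± 0.96 in WT and 5.99% ± 3.03 in KO (SD). This upstream part taken alone differed by 4.90 points over all diets (adjusted p = 1.32e-05 in the quasi-binomial test, moderated as in limma), below the 10 points needed for a call. With so small an SD within WT, its passing of the SD filter was not independent of the rise in KO.

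At Pcdhac2, the last variable first exon of the alpha cluster, WT embryos on 3 ppm were at 3.13%, 2.78%, 4.66% and 3.92% and KO embryos at 8.66%, 10.1%, 12.5%, 10.1% and 10.96%. HET embryos of that diet, at 4.23%, 4.80% and 4.60%, were beside the WT embryos. The KO library that went against its label was at 3.97% on 30 ppm, while the other 5 KO embryos of that diet were between 10.1% and 13.3%. Over all diets KO embryos were higher by 6.05 ± 0.81 points (SE, adjusted p = 3.74e-08 in the quasi-binomial test, moderated as in limma), with 15 of 16 above all WT embryos. The SD filter took in the KO embryos, and Pcdhac2 varied by only 1.51 points (SD) within WT. Its entry to the tests was thus not independent of its rise. The difference was 4.69 points on 30 ppm (adjusted p = 0.0432 in that test), 6.85 on 3 ppm (1.57e-07) and 6.72 on 0.1 ppm (0.000475).

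The change at Pcdhac2 was unevenly spread along the exon. Its first 500 bp were unmethylated in both genotypes, at 0.577% ± 0.417 in WT and 0.707% ± 0.453 in KO over 21 CpGs (SD, n = 9 and 16). Between 500 and 1000 bp the level was 1.378% ± 0.486 and 3.596% ± 1.022. Between 1000 and 1500 bp it was 11.1% ± 5.3 in WT, 11.6% ± 1.3 in HET and 30.8% ± 7.3 in KO over 17 CpGs. The 2 CpGs with the largest differences there, 1277 and 1307 bp from the exon start, went from 23.4% to 63.1% and from 35.199% to 72.799%. A last CpG at 2806 bp was already at 79.9% in WT and stood at 84.7% in KO. The window mean of 10.8% in KO averages these stretches.

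**Figure D4:**
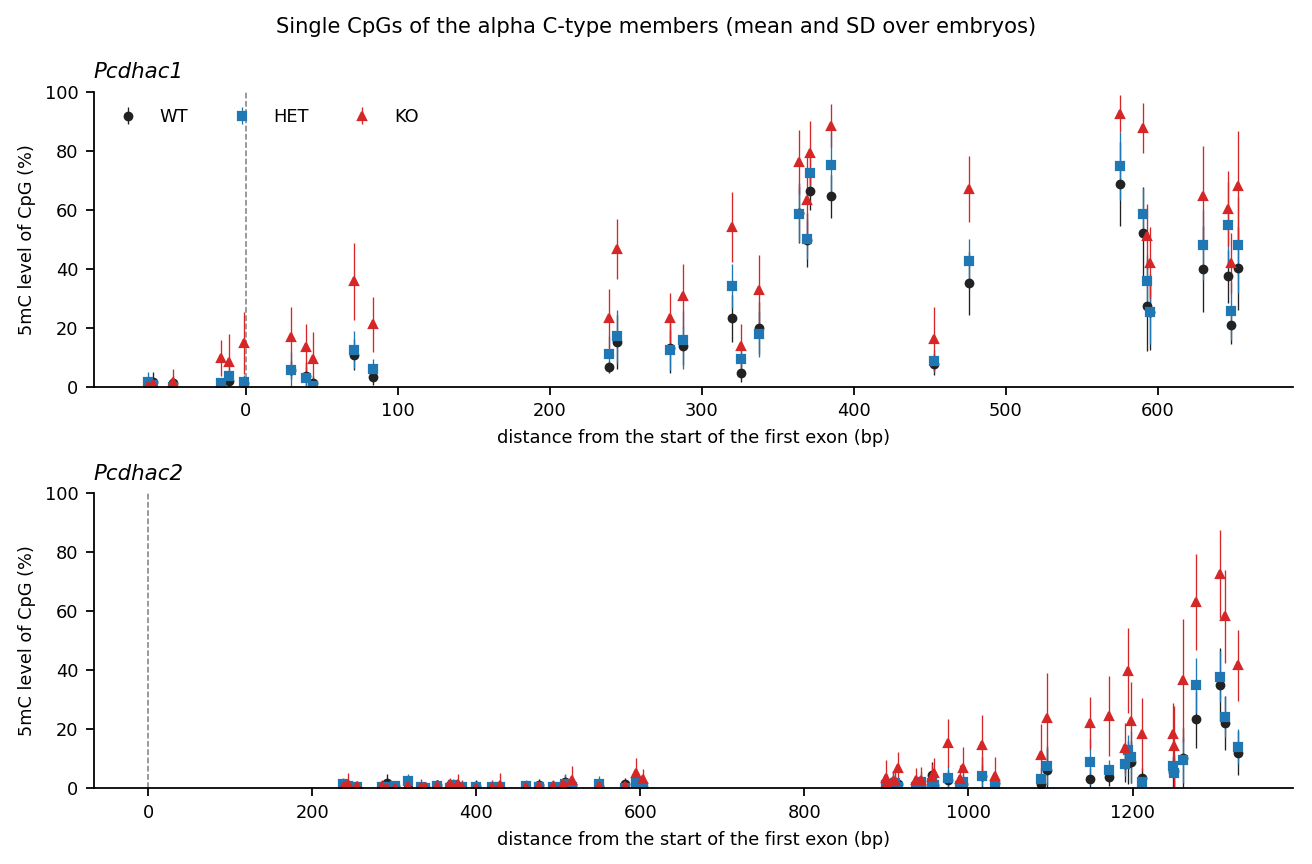
5mC level (%) of single CpGs of Pcdhac1 and Pcdhac2 by distance from the start of the first exon (bp, dashed line at 0), as mean with SD over WT, HET and KO embryos; 1 CpG of Pcdhac2 at 2806 bp lies outside the plotted range. KO points lie above WT points at all 26 exonic CpGs of Pcdhac1, and at Pcdhac2 the mean level between 1000 and 1500 bp is 30.8% in KO and 11.1% in WT, with smaller gaps at most CpGs before that.

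The gamma C-type members showed less. Pcdhgc5, whose measured CpGs lie 1788 to 2613 bp into its exon, was at 20.8% ± 2.5 in WT and 23.8% ± 4.5 in KO (SD, n = 9 and 16), a difference of 3.12 ± 1.69 points (SE) that did not pass the test over all diets (adjusted p = 0.0933, quasi-binomial test, moderated as in limma). On 3 ppm alone the difference was 6.91 points with an adjusted p of 0.0242, and without the 3 libraries the difference over all diets was 4.41 points with an adjusted p of 0.0220. It also passed without KO replicate 1 of 30 ppm alone (3.596 points, 0.0323) and without KO replicate 1 of 0.1 ppm (3.56 points, 0.0448), whereas with litter as a block the difference was 1.92 points (0.379). Its 5 CpGs between 2000 and 2500 bp were at 27.67% ± 3.52 and 36.18% ± 9.13 (SD), while its 10 CpGs further on were at 17.004% ± 4.006 and 17.60% ± 2.76. Pcdhgc3, seen at 59 CpGs, was at most 2.05% and Pcdhgc4, seen at 13, at most 1.69% in any of the 35 embryos.

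Pcdhga1, an alternate member of the A subfamily, had WT levels on 3 ppm of 29.6%, 29.5%, 28.2% and 27.3% and KO levels of 34.2%, 41.9%, 43.2%, 37.6% and 39.7%. These groups did not overlap, and the difference was 10.7 ± 1.9 points (SE, adjusted p = 4.32e-05, quasi-binomial test moderated as in limma). Without KO replicate 3 it was 9.68 points, just under the 10 points of a call. On 30 ppm WT embryos were at 29.3%, 32.9% and 20.9% and KO embryos between 28.66% and 42.897%, with a median of 36.007%, and on 0.1 ppm WT embryos were at 27.9% and 35.9% against 41.27%, 33.66%, 35.52%, 34.32% and 36.71% in KO. Over all diets Pcdhga1 was higher by 8.37 ± 1.76 points (SE, adjusted p = 3.07e-05 in that test), with 9 of 16 KO embryos above all WT embryos, and by 10.9 points without the 3 libraries. The WT values of 32.9% and 35.9% and the KO value of 28.66% belong to these libraries. Of the other embryos, the highest WT was at 29.6% and the lowest KO at 33.3%. Of its 17 exonic CpGs, 16 had a higher mean in KO and 5 by at least 10 points.

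Of the 18 tested gamma alternates, 4 were higher in KO over all diets at any size, namely Pcdhga1, Pcdhga4 (4.80 points), Pcdhgb2 (4.77) and Pcdhga5. The difference was positive in 16 of the 18, with a median of 2.46 points, where 92.9% of all windows were positive and 67.2% were higher by the same test. Pcdhga5 went from 45.08% ± 1.92 in WT to 50.34% ± 3.54 in KO (SD), a difference of 5.37 ± 1.30 points (SE, adjusted p = 0.000931, quasi-binomial test moderated as in limma), and 12 of 16 KO embryos lay above all WT embryos. Pcdhga9 had a difference of similar size, 5.44 ± 2.71 points (SE), but rested on few CpG calls, 25 over 5 CpGs in the shallowest embryo, and did not pass the test (adjusted p = 0.156), although with litter as a block it did, at 3.64 points (0.0430). Pcdhgb6, at 2.52 points (adjusted p = 0.118), passed in 1 fit of all 35 embryos (0.0328), by limma on levels (0.0219) and without WT replicate 1 (0.00653) or KO replicate 5 (0.0416) of 3 ppm. At both ends of the cluster's range, Pcdhga7 was at 84.9% in WT and 84.4% in KO and Pcdhga12 at 14.6% and 15.4%, and neither passed the test.

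In the alpha and beta clusters the alternates were divided in sign. Of 8 tested alpha alternates 4 had a positive difference, with a median of 0.264 points, and of 13 beta members 8 did, with a median of 0.0924 points, where 92.9% of all windows had one. Pcdha1, whose difference of 3.14 points did not pass (adjusted p = 0.0761, quasi-binomial test moderated as in limma), did so with a coverage of 10 reads (4.73 points, 0.00740), by limma on levels (2.66 points, 0.0433) and without WT replicate 1 of 3 ppm (3.75 points, 0.00189), WT replicate 2 of 30 ppm (3.53 points, 0.0479) or KO replicate 4 of 3 ppm (3.59 points, 0.0456). Pcdha5 was at 31.0%, 29.0% and 32.3% in WT embryos on 30 ppm, 32.6%, 37.6%, 39.2% and 29.8% on 3 ppm and 33.3% and 26.1% on 0.1 ppm. KO embryos were between 19.42% and 34.97%, with 7 of 16 below all WT embryos, and HET embryos between 21.5% and 35.8%. The WT values of 29.0% and 26.1% belong to libraries that went against their labels at Tet1, and the lowest of the other WT embryos was 29.8%. Pcdha5 fell by 5.53 points over all diets (SE 1.73, adjusted p = 0.00586, quasi-binomial test moderated as in limma), and 10 of its 11 CpGs had a lower mean in KO. None of these 11 CpGs had 10 reads in every embryo, so the fall rests on CpGs with as few as 5 reads.

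Beta members have no C-type exon, and 2 of the 13 tested passed the test at any size, both higher in KO, where 67.2% of all windows were. Pcdhb1, the first gene of the cluster, went from 49.5% ± 3.0 in WT to 55.3% ± 5.4 in KO (SD), by 6.09 ± 1.99 points (SE, adjusted p = 0.00163, quasi-binomial test moderated as in limma). The 7 CpGs in its first 500 bp were at 29.41% ± 2.80 in WT and 36.65% ± 5.42 in KO, and 4 CpGs between 1000 and 1500 bp at 76.7% ± 4.7 and 79.4% ± 4.6 (SD). Pcdhb13 differed by 5.37 ± 2.59 points (SE, adjusted p = 0.0381 in that test), but it did not pass without the 3 libraries (4.95 points, 0.0608), with litter as a block (4.74 points, 0.0785), on the first exon alone (2.83 points, 0.344), by limma on levels (2.96 points, 0.369) or when any 1 of 10 of the 25 embryos was left out. Pcdhb6 differed by -4.17 ± 2.37 points (SE) and did not pass the test (adjusted p = 0.108), but it did without WT replicate 2 of 0.1 ppm (-5.53 points, 0.0245). Pcdhb17 and Pcdhb21, the highest and lowest beta members in WT, stood at 73.33% ± 3.89 and 43.002% ± 4.744 in KO (SD, n = 16), with differences of 1.13 and 1.78 points that did not pass.

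The share of members called stands beside the share of all windows called. On 30 ppm 1 of 42 members was called (2.38%), where 12.8% of all 1755 windows were. Both counts moved between settings. With litter as a block, which also kept only litters holding both genotypes, 0% of windows and no member were called. The same held when any 1 of 7 of the 9 embryos was left out, and 26.4% of windows and 3 members were called without the 3 libraries. On 3 ppm 2 members were called (4.76%) against 29.1% of windows, on 0.1 ppm 1 member (2.38%) against 23% and over all diets 1 member (2.38%) against 24%. Counting any size of difference over all diets, 8 members were higher in KO at an adjusted p under 0.05 (19.0%), where 67.2% of windows were, and 1 was lower (2.38%), where 0.456% were. The median difference of the 42 members was 1.76 points and 31 were positive (73.8%), beside a median of 4.82 points and 92.9% positive over all windows tested. The SD filter, which took in the KO embryos, was passed by 95.5% of the members with at least 3 CpGs. Of all 11940 windows with as many CpGs 14.7% passed it. The shares over all windows thus come from a set chosen in part by the KO difference. No test of the difference between members and other windows was made.

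Pooled over CpGs, the alpha cluster was at 30.7% ± 1.9 in WT, 31.0% ± 1.8 in HET and 36.23% ± 2.25 in KO (SD, n = 9, 10 and 16). Its C-type part was at 11.3% ± 2.7, 13.0% ± 1.8 and 22.1% ± 3.5, while its alternates were at 50.26% ± 2.45, 49.5% ± 3.1 and 50.7% ± 2.5. The beta cluster was at 58.2% ± 1.5, 58.1% ± 1.8 and 59.7% ± 1.4. The gamma alternates were at 34.2% ± 1.7, 33.5% ± 1.1 and 37.4% ± 1.9 and the gamma C-type members at 3.35% ± 0.41, 3.55% ± 0.67 and 4.22% ± 0.76. These sums weight members by their CpG calls and were not tested.

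**Figure D5:**
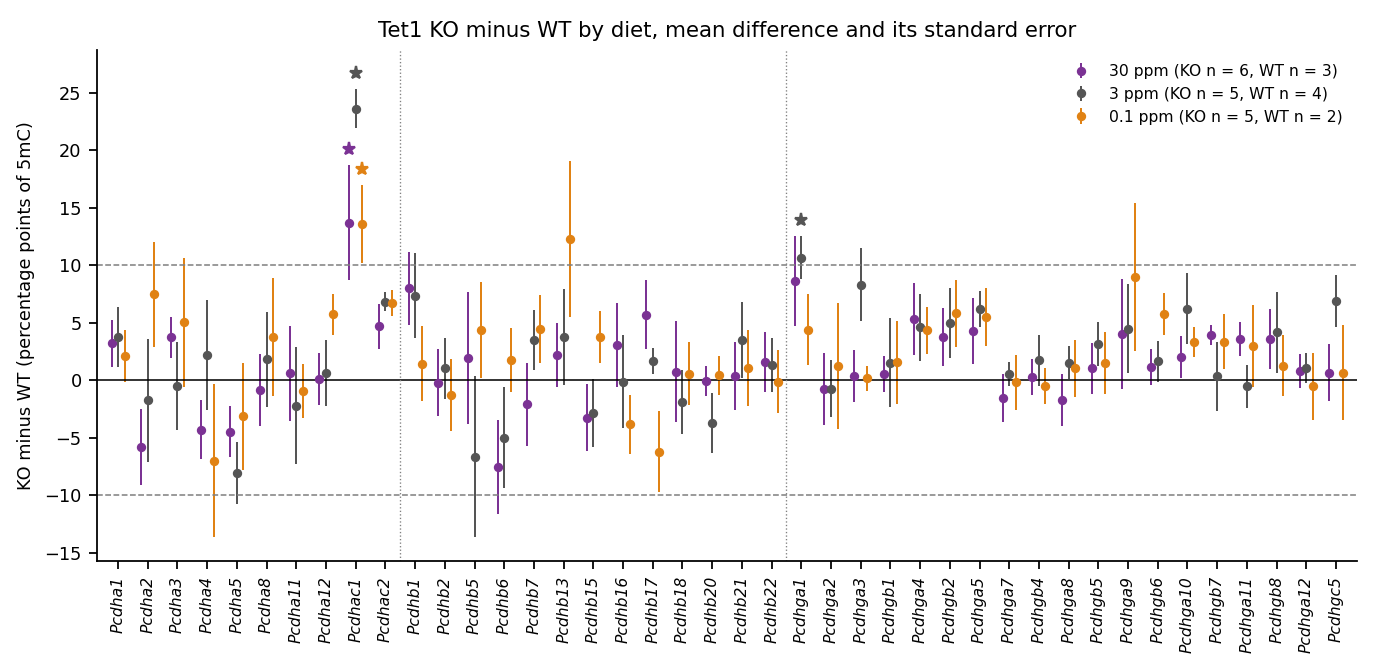
Difference between KO and WT mean 5mC levels (percentage points) of the 42 tested members on each diet, with its standard error, in genomic order with dotted lines between the alpha, beta and gamma clusters. Stars mark the calls, which are Pcdhac1 on all 3 diets at 13.6 to 23.6 points and Pcdhga1 on 3 ppm at 10.7 points, and dashed lines stand at 10 and -10 points.

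HET embryos carry 1 Tet1 allele and were compared with the same WT embryos as the KO embryos were. No member was called on 30, 3 or 0.1 ppm or over all diets by the quasi-binomial test or by limma on levels, where 0%, 0.798%, 0% and 0.057% of windows were called by the former. Without the 3 libraries the share of windows over all diets was 1.99%, again with no member. At an unadjusted p under 0.05 the counts were 1, 4, 0 and 3 of 42 members (2.38%, 9.52%, 0% and 7.14%), beside 3.70%, 16.0%, 5.19% and 12.8% of all windows. On 3 ppm the member with the smallest p was Pcdhac1, at 29.0% ± 3.2 in HET and 23.8% ± 2.2 in WT (SD, n = 3 and 4), a difference of 5.20 ± 2.01 points (SE, adjusted p = 0.0780 in the quasi-binomial test moderated as in limma). It passed at an adjusted p under 0.05 on the first exon alone (6.83 points, 0.0185), without HET replicate 1 (7.02 points, 0.0387) and without WT replicate 3 (6.30 points, 0.0385), and with litter as a block the adjusted p was 0.301. Over all diets Pcdhac1 was at 26.7% ± 3.6 in HET, with a difference of 2.67 ± 2.01 points (SE, adjusted p = 0.390 in the quasi-binomial test moderated as in limma). On 30 ppm the smallest p was at Pcdhga8, where HET embryos were at 23.7%, 18.6%, 23.3%, 21.8% and 23.8% and WT embryos at 26.3%, 27.7% and 29.3%. The groups did not overlap, but with an adjusted p of 0.982 over all windows the difference of -5.51 points did not pass, nor did that of -4.03 over all diets (0.148). On 0.1 ppm it was at Pcdha1, with 58.2% and 62.8% in HET and 51.88% and 56.99% in WT (adjusted p = 0.897). The WT embryo at 56.99% is the library that went against its label. Without it the difference was 8.61 instead of 6.06 points, with 1 WT embryo left.

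Diets were compared within a genotype, each against 3 ppm, and embryos on different diets came from different litters, so that diet and litter cannot be told apart. No member was called in any of the 6 comparisons by the quasi-binomial test or by limma, and 0% of all windows were called by the former. Unadjusted p-values under 0.05 were found for 3 members on 30 ppm and 3 on 0.1 ppm in WT, 2 and 1 in HET and 1 and 3 in KO, which is 2.38% to 7.14% of members. Over all windows the shares were 3.36% and 6.15% in WT, 6.15% and 4.79% in HET and 6.32% and 5.58% in KO. The smallest p among KO embryos was at Pcdhac1 on both diets, with 38.72% ± 7.20 on 30 ppm (n = 6), 47.4% ± 2.7 on 3 ppm (n = 5) and 37.7% ± 2.2 on 0.1 ppm (n = 5, SD). The 5 KO embryos on 0.1 ppm, 36.35% to 41.52%, lay below the 5 on 3 ppm, 42.7% to 49.2%. The difference was -9.69 ± 1.56 points (SE) with an adjusted p of 0.202 for 0.1 ppm and -8.69 ± 3.43 with 0.661 for 30 ppm. The p-values, but not the SE, come from the quasi-binomial test moderated as in limma. The 30 ppm group includes KO replicate 1, at 25.8%, which went against its label. Without it that difference was -6.10 points. Without KO replicate 2 of 3 ppm the 0.1 ppm difference was -10.9 points at an adjusted p of 0.0200, and by limma on levels it was -6.25 points (0.657).

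In WT embryos the smallest p was at Pcdha3 on 30 ppm, with 46.6%, 49.6% and 49.7% against 54.73%, 53.9%, 57.2% and 58.2% on 3 ppm. The difference of -7.37 points had an adjusted p of 0.913. On 0.1 ppm it was at Pcdhb17, with 73.6% and 83.0% against 69.3% to 70.8%, a difference of 7.87 points and an adjusted p of 0.790. Without the library that went against its label, at 83.0% and also titled inHB, it was 3.14 points, with 1 WT embryo left on 0.1 ppm. In HET embryos it was at Pcdhgb6 on both diets, with 22.7%, 25.2% and 25.7% on 3 ppm, 28.0% to 32.4% on 30 ppm and 30.6% and 30.8% on 0.1 ppm. Neither of its differences, 5.56 and 6.17 points, passed the test (adjusted p = 0.409 and 0.927).

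Whether the KO difference itself changed with diet was tested as an interaction term. No member was called for 30 against 3 ppm or for 0.1 against 3 ppm by either test, 0% of windows were called by the quasi-binomial test, and 1 and 3 members (2.38% and 7.14%) had an unadjusted p under 0.05, beside 9% and 5.41% of windows. At Pcdhac1 the KO difference was smaller on 0.1 than on 3 ppm by 10.0 points (SE 3.47), with an adjusted p of 0.888, and by 4.43 points without the 3 libraries. For 30 against 3 ppm the smallest p was at Pcdhga11, with an interaction of 4.14 ± 2.43 points (SE, adjusted p = 0.529). The 5 KO embryos labelled with a neural tube defect (NTD) and the 7 labelled as normal were compared with diet as a term, and again no member and 0% of windows were called, with 1 member (2.38%) at an unadjusted p under 0.05 beside 4.39% of windows. That member was Pcdhb22, at 58.8% in NTD and 62.7% in normal KO embryos, with an adjusted p of 1.00. Pcdhac1 was at 41.5% and 43.3%, and its difference with diet taken into account was -0.247 ± 1.91 points (SE).

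Related gene lists were read the same way. Of 10 non-clustered protocadherins, single genes elsewhere in the genome whose products are also cadherin-like adhesion proteins, 8 had enough CpGs and 3 varied enough to be tested. All 3 rose over all diets at an adjusted p under 0.05, as 67.2% of all windows tested did, and none by 10 points. The SD filter took in the KO embryos, and Pcdh7 and Pcdh8 varied by less than 2 points (SD) within WT. Their entry to the test was thus not independent of their rise. Pcdh7 went from 2.54% ± 1.22 to 9.38% ± 2.51, Pcdh8 from 2.10% ± 0.41 to 6.02% ± 1.20 and Pcdh12 from 74.3% ± 5.2 to 83.8% ± 4.9 (SD, n = 9 WT and 16 KO), and Pcdh12 was called on 0.1 ppm with a difference of 10.96 points, where 23% of all windows were called. The other 5 were at most 1.30% in WT and 3.29% in KO. The windows of 13 regulators of the clusters, among them Ctcf, Rad21, Smchd1, Dnmt3b and Setdb1, were at most 1.39% in WT and 1.38% in KO, and those of 7 partners of protocadherin proteins, such as Ptk2 and Wasf1, at most 1.88% and 2.84%. None of these 20 varied enough to be tested.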

How the data were processed

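The authors trimmed reads with Trim Galore 0.6.10, aligned them to mm10 with Bismark 0.24.1 and removed duplicates with UMI-tools, per the submitters' processing notes. The deposited tables give, per CpG, the methylated fraction and the count of covering reads, 2 at least. Fraction times count was whole, so methylated read counts were recovered. Windows used 1 GENCODE vM21 transcript per gene. Reads were pooled per window over CpGs with 5 or more reads in all 35 embryos. For the 1755 windows with at least 3 such CpGs and an SD of at least 2 points, a quasi-binomial logistic model was fitted, its dispersion moderated as by limma 3.58.1 squeezeVar with a floor of 1, with two-sided F tests and Benjamini-Hochberg adjustment. Differences are those of mean levels, adjusted for diet where diets were pooled. They and their SE come from a least-squares fit to embryo levels, unweighted and not moderated, so an SE and a p-value belong to different models. The fit was tested on simulated data. Alternatives were coverage of 10, no SD filter, exon or upstream only, CpGs covered in the compared embryos, 1 fit of all embryos, limma on levels, sex, litter, and leaving out embryos. Litters were read from the titles, which number embryos within litters. Named members were, per cluster, the 3 with the largest KO minus WT difference, the highest and lowest in WT, tested C-type members, and in other comparisons those called or of smallest p. Members, lists and rules were chosen with earlier results of these data known. No sequences are printed. The authors' lists of differentially methylated regions were not used. Neighbouring CpGs share reads, so the CpG calls pooled in a window are not separate molecules. The dispersion, held at 1 or above, is estimated between embryos. Taking calls as independent, 95% Wilson intervals of an embryo's Pcdhac1 level were 2.76 to 9.77 points wide, covering counting error only and too narrow for that reason. Embryos are biological replicates, some of 1 litter.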

Additional observations from a re-analysis of the deposited data

Results flagged for a closer look

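Over the named members, the pooled levels of the 3 clusters and the groups of 4 to 6 embryos, 120 sets of values were examined for a single embryo far from the rest, and 9 held one, where chance gives about 1 in 20. 3 concern Pcdhac1, at 41.5% in KO replicate 5 of 0.1 ppm (others 36.35% to 37.76%), 42.7% in KO replicate 2 of 3 ppm (others 48.1% to 49.2%) and 27.1% in WT replicate 3 of 3 ppm (others 22.3% to 23.1%). At Pcdhac2 the library labelled KO replicate 1 of 30 ppm, which went against its label at Tet1, was at 3.97% (others 10.1% to 13.3%). At Pcdha5 KO replicate 2 of 30 ppm was at 19.4% (others 26.5% to 29.5%), and at Pcdhga12 KO replicate 1 of 3 ppm at 11.9% (others 14.8% to 15.6%). In WT embryos of 3 ppm, Pcdhb17 was at 69.3% in replicate 4 (others all 70.8%), Pcdhb21 at 36.22% in replicate 3 (others 43.03% to 44.38%) and Pcdhga9 at 22.4% in replicate 3 on 85 CpG calls (others 35.02% to 35.56%).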

How the results depend on the processing

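Of the differences of named members rerun here, none that passed its test changed sign. Over all diets, KO minus WT differences that did not pass changed sign at Pcdhb22 with a coverage of 10 reads (-0.999 points), at Pcdhb21 (-0.0869) and Pcdhga8 (-0.507) with litter as a block, and when 1 embryo was left out at Pcdhga8 (-0.179 to 0.679), Pcdha11 (-1.69 to 0.422) and Pcdhga12 (-0.115 to 1.54). Restricted to the 1 kb upstream, where only Pcdhac1 entered the tests, 0 members were called in each KO against WT comparison, beside 10.2% to 27.2% of windows. On 30 ppm the count of 1 became 0 without the SD filter (adjusted p = 0.0591 for Pcdhac1, 11940 windows adjusted over), 0 by limma on levels (0.0609), 0 with litter as a replicate block (0.0781, 0% of windows) and 3 without the 3 libraries that went against their labels (Pcdhac1, Pcdhb1 and Pcdhga1, beside 26.4% of windows). Shares of windows called without the SD filter or by limma, here and in earlier comparisons, are not given. Those member counts are thus not results particular to the members. The block, over litters holding both genotypes, left the counts of the other KO against WT comparisons at 2, 1 and 1, beside 29.7%, 17.6% and 23.9% of windows, and it could not be fitted for HET against WT on 0.1 ppm. On 0.1 ppm 1 fit of all 35 embryos called 2 members, Pcdhac1 and Pcdhb13, beside 24.4% of windows, and over all diets 2 were called without the 3 libraries, beside 29.2% of windows. Leaving out 1 embryo at a time gave 0 to 2 calls on 30 ppm (0% to 21% of windows), 1 to 2 on 3 ppm (28.2% to 29.5%), 1 to 2 on 0.1 ppm (14.7% to 23.8%) and 0 to 1 for 0.1 against 3 ppm in KO (0% to 0.057%). Without WT replicate 1 of 0.1 ppm the 2 calls were Pcdha4 and Pcdhb17, both lower in KO, beside 14.7% of windows, with 1 WT embryo left that is assumed to vary like the KO embryos. In counts at any size, an alternative added after the data were seen, a coverage of 10 reads gave 0 members lower in KO. There Pcdha5 had no CpG left and was not among the 30 members tested. The cause of the other shifts was not tested. Depth limits Pcdhb6, Pcdhga9 and Pcdha11 most, with 24, 25 and 30 CpG calls over 3, 5 and 3 CpGs in the shallowest embryo.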
